A study of Mus musculus with 8 samples.

Results

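The genes of the unfolded protein response and the integrated stress response were followed in cultured mouse macrophages with and without the kinases Cdk8 and Cdk19. The set held 34 genes, named by symbol, out of 34432 rows of the expression table, and all 34 were abundant enough to be tested, among 11675 tested genes. They fell into 14 chaperones and folding enzymes of the endoplasmic reticulum (ER), 7 genes of ER degradation, 4 genes for the stress sensors and Xbp1, and 9 genes for Atf4 and its targets.

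Polyadenylated RNA came from macrophages that had been grown from bone marrow and collected at day 7, with 4 libraries per genotype and no treatment in either. Controls were VAV-cre, which carry a Cre recombinase under the Vav promoter, active in blood-forming cells. The double knockouts, CDK8CDK19KO in the labels, combined Cdk8 flox/flox with Vav-iCre and Cdk19null, so that Cdk8 was the target of the Vav-driven Cre. The 2 genotypes differed in both kinases at once, and the part of each kinase cannot be told apart. The sources used here give neither the age of the animals nor the kind of Cdk19 null allele, nor whether replicates came from separate animals. P-values therefore set the difference between the genotypes against the spread among these libraries, which may be only technical.

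Proteins that enter the secretory pathway fold in the ER with the help of chaperones, and misfolded ones are returned to the cytosol for degradation. When unfolded protein accumulates, the sensor IRE1 (gene Ern1) splices Xbp1 mRNA, ATF6 is cut to release a transcription factor, and PERK (gene Eif2ak3) phosphorylates the translation factor eIF2. Phosphorylated eIF2, which other kinases also produce when amino acids or haem are short, lowers general translation and favours translation of the transcription factor ATF4: this branch is the integrated stress response. ATF6 and spliced XBP1 act mainly on chaperone and degradation genes, and ATF4 on genes of amino acid supply and on Ddit3, which encodes CHOP.

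The promoters of these genes hold letters that a reader can place beside the values. The ER stress element, written as CCAAT, 9 further bases and CCACG, is the one known to be bound by ATF6 and XBP1 together with NF-Y. RefSeq promoter windows of GRCm38.p6, which run from 250 bases before to 50 bases after each start, were found for 30 of the 34 genes and searched on both strands. The element stood in 39 of 32851 windows (0.119%) and in those of 8 genes of the set, 7 of them among the 12 ER chaperones with a window. The matches are shown because they set the chaperone promoters beside each other. They read 5′ to 3′ along the strand that carries CCAAT, with the outer letters of the element in capitals, and Hsp90b1 has 1 match on each strand.
Hspa5: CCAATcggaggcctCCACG
Hsp90b1, opposite strand: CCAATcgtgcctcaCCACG
Hsp90b1, gene strand: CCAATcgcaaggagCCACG
Calr: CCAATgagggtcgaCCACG
Canx: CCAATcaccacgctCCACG
Creld2: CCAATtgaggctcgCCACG
Dnajc3: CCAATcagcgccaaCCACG
Pdia6: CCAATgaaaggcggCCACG
Syvn1: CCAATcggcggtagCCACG

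The Hspa5 match began 65 bases before the start used for its window. The 250 bases before that start (chr2:34771840-34772089, plus strand) are shown with the same letters in capitals. The GENCODE gene span given further below begins earlier, at 34771970, so the match lies inside that span.
Hspa5 upstream: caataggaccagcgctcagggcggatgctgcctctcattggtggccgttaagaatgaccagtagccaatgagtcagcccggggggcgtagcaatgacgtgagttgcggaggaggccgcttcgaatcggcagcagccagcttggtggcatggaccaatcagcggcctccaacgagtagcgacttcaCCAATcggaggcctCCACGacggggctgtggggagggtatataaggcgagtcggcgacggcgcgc

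Another form, the ER stress element II (ATTGG, 1 base, CCACG), stood in 12 windows (0.0365%), that of Herpud1 among them. The C/EBP-ATF element TGATGNAA, the kind of sequence to which ATF4 binds with a C/EBP partner, stood in 1304 windows (3.97%) and in those of Asns, Chac1, Herpud1, Nupr1 and Trib3, of which 4 belong to the 9 Atf4 genes. The UPR element TGACGTGG stood in 222 windows (0.676%) and in none of the set. The sequence before Herpud1 is shown because it holds both an ER stress element II and a C/EBP-ATF element (chr8:94386179-94386428, plus strand), and that before Nupr1 because it holds a C/EBP-ATF element in a gene with one of the higher fold changes of the set (chr7:126625471-126625720, minus strand). Both C/EBP-ATF elements lie on the opposite strand, so they read TTGCATCA here, and capitals mark the elements. The Nupr1 stretch lies before the start used for its window but inside the GENCODE gene span (126623249 to 126630861).
Herpud1 upstream: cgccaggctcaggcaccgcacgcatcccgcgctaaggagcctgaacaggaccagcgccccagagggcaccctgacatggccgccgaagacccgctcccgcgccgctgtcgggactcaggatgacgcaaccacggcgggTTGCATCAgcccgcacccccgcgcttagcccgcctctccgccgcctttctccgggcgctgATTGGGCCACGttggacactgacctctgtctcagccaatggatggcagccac
Nupr1 upstream: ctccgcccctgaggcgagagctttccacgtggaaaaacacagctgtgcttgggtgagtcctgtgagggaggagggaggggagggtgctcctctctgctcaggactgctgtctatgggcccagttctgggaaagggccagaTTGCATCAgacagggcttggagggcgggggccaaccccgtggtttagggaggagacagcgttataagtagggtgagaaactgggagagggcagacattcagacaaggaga

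Libraries held 17856715 to 21353207 reads, and Cdk19 fell from 1452 ± 189 to 372.8 ± 25.8 normalized reads (SD, n = 4 per group). Cdk8 fell from 438.7 ± 24.5 to 347.3 ± 60.8, with an adjusted p of 0.0374 by limma but overlapping groups and an exact permutation p of 0.0571. This Cdk8 call was lost in 12 of 20 alternative analyses, and a gene total holds reads from outside the floxed exons, which do not check the deletion. The 10 macrophage markers were all present at a summed level of 317660 to 336740 in controls and 250610 to 273110 in double knockouts, and all 10 passed the test, 5 as higher and 5 as lower. Lyz2, 1 of the 5 that fell, was the largest part of this sum, with means of 160550 in controls and 96662 in double knockouts. Monocyte markers summed to 2408 to 2992 against 600 to 713, neutrophil markers to 1915 to 3374 against 449.5 to 729.7, and the 6 markers of cell division to 19539 to 21992 against 2781 to 2975. Called lower were 3 of 6 monocyte markers, 7 of 7 tested of 9 neutrophil markers (Ly6g stayed under 10 reads) and 6 of 6 of cell division. The T and NK cell markers Cd3e, Cd3d and Ncr1 and the erythroid marker Hbb-bs were at 0 in all libraries. Nkg7, of the same T and NK list, reached at most 3.9. Of the erythroid list, Klf1 reached at most 5.8, and Epor was at 0 to 4.8 in controls and 1.9 to 19.5 in double knockouts. In bulk RNA, fewer cells of a type and less RNA per cell cannot be told apart. The double knockout libraries resembled each other in pairs, 1 with 2 and 3 with 4. The mitochondrial share of reads was 2.60% and 2.98% in the first pair and 4.27% and 4.19% in the second. In controls 1 to 4 it was 3.52%, 3.19%, 3.26% and 2.77%.

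The set as a whole moved both ways (the heat map shows each gene in each library). By limma with Benjamini-Hochberg adjustment over all tested genes at 0.05, 9 of the 34 genes rose and 11 fell in the double knockout, and 14 did not pass. Over all tested genes 46.6% passed, 22.9% as higher and 23.8% as lower. The 2 groups of libraries did not overlap for 21 genes of the set, against 42.9% of all tested genes. A called change of at least 2-fold was seen for 1 gene of the set, Trib3, against 10.9% of tested genes. The median log2 fold change was 0.01 for the set and 0.01 for all tested genes.

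**Figure D1:**
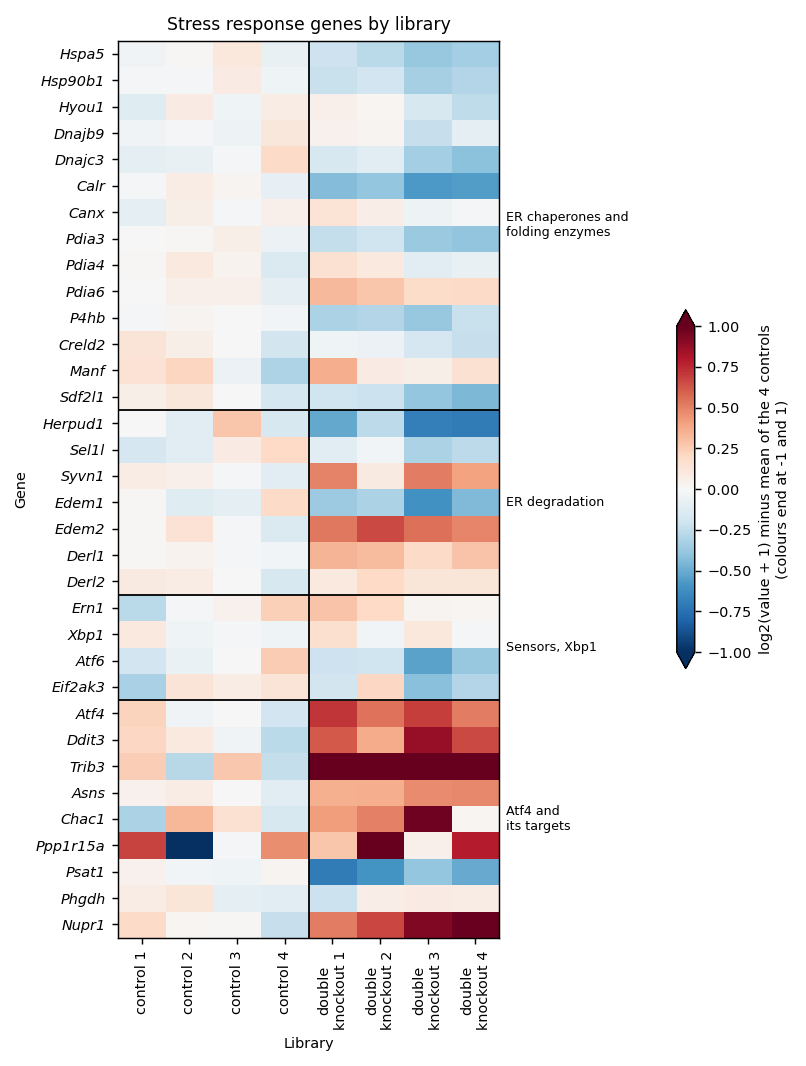
Heat map of the 34 genes (one line each, grouped by role) in the 4 control and 4 double knockout libraries, coloured by log2(value + 1) minus the mean of the controls, with the colours ending at -1 and 1. Most ER chaperones are at or below the control level in double knockouts 3 and 4, and Atf4, Ddit3, Trib3, Asns and Nupr1 are above it in each double knockout.

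Of the 14 ER chaperone genes, 7 fell in the double knockout, Pdia6 rose and 6 did not pass, with a median log2 fold change of -0.19. Called lower were 50% and higher 7.14%, against 23.8% and 22.9% of all tested genes. The log2 fold changes of those that fell lay between -0.49 and -0.26. Together the 14 genes took 0.491% ± 0.0120 of all reads in controls and 0.405% ± 0.0290 in double knockouts.

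Calr, the gene of the calcium-binding lectin chaperone calreticulin, fell most among them. It is on chromosome 8 (84841850 to 84846934, minus strand, mm10). Its normalized reads were 18290, 19476, 18896 and 17532 in the controls and 13696, 14156, 12445 and 12572 in the double knockouts. Each double knockout was below each control, the mean was 71.3% of that of the controls, and the log2 fold change was -0.49 with a standard error (SE) of 0.06 (adjusted p = 5.61e-05). Canx, which encodes the membrane-bound lectin chaperone calnexin, had overlapping groups (8765 to 9734 in controls and 9033 to 10249 in double knockouts) and a log2 fold change of 0.03 (adjusted p = 0.691).

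Hspa5, which encodes the ER Hsp70 protein BiP, is on chromosome 2 (34771970 to 34777547, plus strand). It was read at 13707, 14146, 15128 and 13319 in the controls and at 12198, 11652, 10825 and 11138 in the double knockouts. The groups did not overlap, and the level fell 1.23-fold (-0.30 on the log2 scale, SE 0.06, adjusted p = 0.00203). Hsp90b1, the gene of the ER Hsp90 protein GRP94 on chromosome 10 (86690209 to 86705509, minus strand), went from 12715, 12723, 13587 and 12453 to 11051, 11276, 10194 and 10512. Again the groups did not overlap (log2 -0.26, SE 0.06, adjusted p = 0.00291), and 10.3% of its exon bases are shared with a transcript on the opposite strand that was read at 113.8 on average.

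The cofactors of BiP did not all move with it. Sdf2l1, whose protein works with BiP and its J-domain partners, was at 1485, 1541, 1429 and 1265 in the controls against 1243, 1226, 1088 and 1046, or -0.31 on the log2 scale (SE 0.09, adjusted p = 0.0106). Dnajc3, a J-domain cochaperone, was at 2246, 2293, 2380 and 2746 against 2154, 2230, 1904 and 1809. Its highest double knockout was 15.3 reads below its lowest control, a log2 difference of -0.26 (SE 0.09, adjusted p = 0.0307). Hyou1, the nucleotide exchange factor of BiP (log2 fold change -0.09, adjusted p = 0.404), and Dnajb9, another J-domain cochaperone (-0.06, adjusted p = 0.563), did not pass.

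The protein disulfide isomerases split. Pdia3, which works with calreticulin and calnexin on glycoproteins, was at 14760, 14920, 15427 and 14226 in the controls and 12541, 12932, 11436 and 11280 in the double knockouts (log2 fold change -0.30, SE 0.06, adjusted p = 0.00180). P4hb, the classical isomerase, was at 9906, 10176, 10004 and 9786 against 7999, 8143, 7650 and 8524 (-0.30, SE 0.05, adjusted p = 7.0e-04). Both had groups that did not overlap. Pdia6, a further isomerase, went the other way: 4728, 4928, 4907 and 4434 in the controls against 5948, 5738, 5397 and 5411, with the lowest double knockout above the highest control (0.24, SE 0.06, adjusted p = 0.00570). Pdia4 had a log2 fold change of 0.02 (adjusted p = 0.885).

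Creld2 and Manf, ER stress-induced genes of secreted proteins, were at -0.13 (adjusted p = 0.277) and 0.17 (adjusted p = 0.247) on the log2 scale. The 7 chaperone genes with an ER stress element comprised 4 that fell (Calr, Dnajc3, Hsp90b1 and Hspa5), Pdia6 that rose, and Canx and Creld2 that did not pass. Over all 16 tested genes with the element 3 were called higher and 6 lower, but 8 of the 16 belong to the set. Of the 8 outside the set 1 was called higher and 2 lower. Over all 9224 tested genes with a window 23.4% were called higher and 24.0% lower. The called genes with the element outside the set were Adcy3 (3.67 on the log2 scale), Ero1b, an ER oxidase (-0.51), and Hnrnpa3 (-0.25).

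The chaperone levels also differed between the double knockout pairs. Averaged over the 14 genes, the log2 level relative to controls was -0.05 and -0.08 in double knockouts 1 and 2, and -0.23 and -0.21 in 3 and 4, with an SD of 0.04 among controls. Control 4 was at -0.0544 and double knockout 1 at -0.0536, so these averages overlapped between the genotypes. With double knockouts 1 and 2 alone, 5 chaperones were called lower and the median was -0.09, and with 3 and 4 alone 7 were called lower and Pdia6 was not called (adjusted p = 0.0693). The call of Dnajc3 was lost in 8 of 20 alternative analyses and that of Sdf2l1 with double knockouts 1 and 2 alone. The mitochondrial share of reads was higher in double knockouts 3 and 4, where the chaperones were lower. The summed markers of monocytes, neutrophils and cell division were lower in the double knockouts as a group than in controls. The part of the mitochondrial share and of these markers in the result was not tested.

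**Figure D2:**
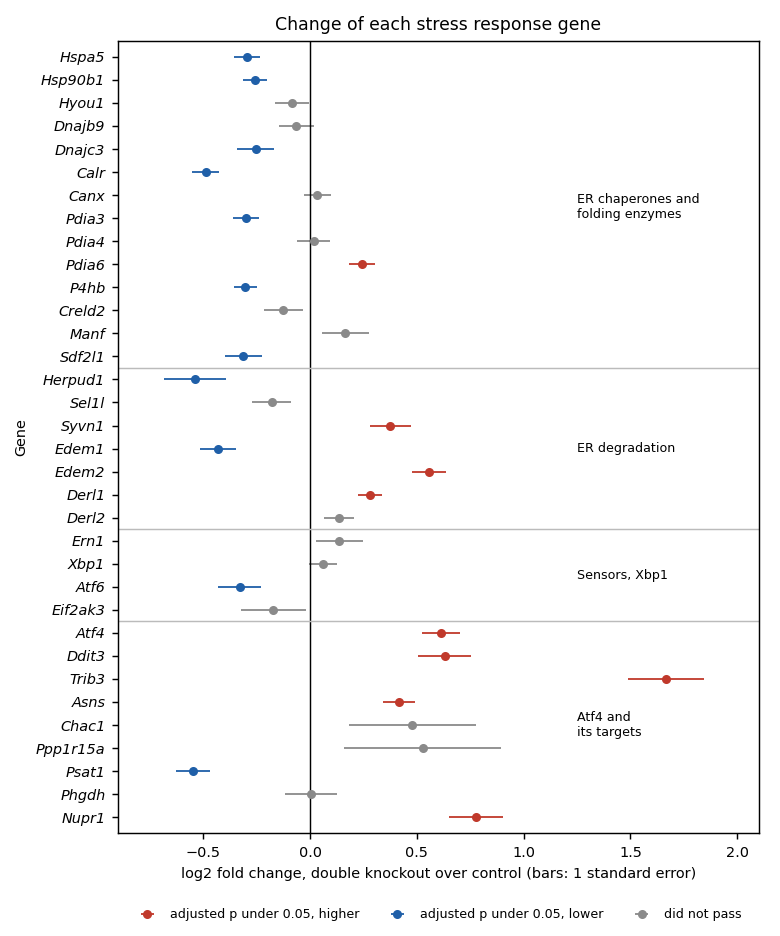
Log2 fold change (double knockout over control) of each of the 34 genes with its standard error, grouped by role and coloured by whether it passed the test, from limma on 4 libraries per group. Of the 14 ER chaperones 10 lie left of 0, and the 14 range from -0.49 to 0.24, and Trib3 lies furthest right at 1.67.

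Genes of ER degradation changed in both directions, with 3 higher, 2 lower and 2 not passing among 7, and a median log2 fold change of 0.14. Called higher were 42.9% and lower 28.6%, against 22.9% and 23.8% of all tested genes. Edem2, which starts the mannose trimming that marks glycoproteins for degradation, was at 819.6, 896.2, 803.4 and 732.9 in the controls against 1169, 1285, 1191 and 1136 in the double knockouts. It rose 1.47-fold (log2 0.56, SE 0.08, adjusted p = 1.57e-04), and every double knockout was above every control. Its relative Edem1 fell from 5085, 4629, 4727 and 5756 to 3912, 4049, 3314 and 3705, again with no overlap (log2 -0.43, SE 0.08, adjusted p = 0.00136). These 2 members of one protein family therefore changed in opposite directions in the same libraries.

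The membrane machinery that passes proteins to the cytosol was also mixed. Syvn1, the gene of the ubiquitin ligase HRD1, was at 910.1, 896.2, 856.7 and 806.2 in the controls against 1221, 923.7, 1238 and 1145. Double knockout 2 lay 13.6 reads above the highest control and the others further up (log2 0.38, SE 0.10, adjusted p = 0.00813). Sel1l, the adaptor of HRD1, had means of 3369 and 2966 with overlapping groups (-0.18, adjusted p = 0.129). Herpud1, which helps to assemble the HRD1 complex, went from 264.4, 243.6, 319.6 and 236.3 to 184.5, 220.1, 164.1 and 162.7 (-0.54, SE 0.14, adjusted p = 0.00947). No double knockout reached the lowest control.

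The derlins are membrane proteins of the same channel. Derl1 rose from 3035, 3073, 2961 and 2945 to 3796, 3736, 3428 and 3654 (log2 0.28, SE 0.06, adjusted p = 0.00147). Derl2 was at 1449, 1431, 1361 and 1216 in the controls and at 1454, 1564, 1480 and 1482 in the double knockouts. Its groups did not overlap, but the distance between them was 5.7 reads and its adjusted p was 0.147. The calls of Herpud1 (adjusted p = 0.104) and Syvn1 (adjusted p = 0.0967) were lost with double knockouts 1 and 2 alone.

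Of the 4 sensor and Xbp1 genes only Atf6 was called, or 25%, against 46.6% of all tested genes. Atf6 was at 3206, 3489, 3660 and 4351 in the controls and 3170, 3181, 2517 and 2812 in the double knockouts, or -0.33 on the log2 scale (SE 0.10, adjusted p = 0.0193). Control 4 was the highest and control 1 lay 24.6 reads above the highest double knockout. The call was lost in 4 of 20 alternatives, among them double knockouts 1 and 2 alone (adjusted p = 0.201). Xbp1 was at 2413, 2199, 2238 and 2197 against 2528, 2223, 2434 and 2242, with overlapping groups (log2 0.06, adjusted p = 0.494). Gene totals do not tell spliced from unspliced Xbp1 mRNA. Ern1 (0.14, adjusted p = 0.339) and Eif2ak3 (-0.17, adjusted p = 0.375) did not pass.

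Of the 9 genes for Atf4 and its targets, 5 rose in the double knockout, Psat1 fell and 3 did not pass, with a median log2 fold change of 0.53. Called higher were 55.6% and lower 11.1%, against 22.9% and 23.8% of all tested genes. The 9 genes together took 0.0295% ± 0.00211 of reads in controls and 0.0382% ± 0.00151 in double knockouts. With either pair of double knockouts alone, 5 were again called higher and 1 lower. The 5 genes of the set with a C/EBP-ATF element comprised 3 that rose (Asns, Nupr1 and Trib3), Herpud1 that fell and Chac1 that did not pass. Over all 265 tested genes with this element 29.1% were called higher and 23.8% lower. The shares over all 9224 tested genes with a window were 23.4% and 24.0%.

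Atf4 itself is on chromosome 15 (80255184 to 80257541, plus strand). Its mRNA was at 2591, 2162, 2212 and 1945 in the controls and at 3635, 3221, 3580 and 3152 in the double knockouts. The rise was 1.53-fold with no overlap (log2 0.61, SE 0.09, adjusted p = 1.47e-04). ATF4 is controlled largely at translation, which these data did not measure.

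Ddit3, the gene of the transcription factor CHOP on chromosome 10 (127290774 to 127296288, plus strand), was at 811.8, 752.1, 688 and 584.4 in the controls. In the double knockouts it was at 1078, 909.6, 1291 and 1112, all above the controls (log2 0.63, SE 0.12, adjusted p = 0.00138). Trib3, a pseudokinase gene induced by ATF4 and CHOP on chromosome 2 (152337422 to 152344032, minus strand), had the highest fold change of the 34. It rose from 96.3, 66.7, 97.7 and 68.5 to 223.3, 270.4, 308.1 and 242.7, which is 3.17-fold (log2 1.67, SE 0.18, adjusted p = 1.3e-05). The lowest double knockout was 125.6 reads above the highest control, and 98.3% of tested genes had a lower log2 fold change.

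Nupr1, a stress-induced nuclear protein gene, was at 433.4, 384.8, 382.9 and 324 in the controls and at 541.7, 604.1, 721.2 and 755.2 in the double knockouts (log2 0.78, SE 0.13, adjusted p = 4.15e-04). Double knockouts 3 and 4 were the highest. Ppp1r15a, whose product GADD34 directs the phosphatase that restores eIF2, varied widely among controls, at 261.4, 74.4, 162 and 225.7. Its double knockouts, at 198.1, 326.7, 169.1 and 282.6, overlapped them (0.53, SE 0.37, adjusted p = 0.272), and the log2 fold change was 0.15 without control 2. Chac1, a glutathione-degrading enzyme gene, was low, at 20.6 to 32.9 against 26.3 to 52 (0.48, SE 0.30, adjusted p = 0.209).

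The amino acid genes of the group went different ways. Asns, which makes asparagine, rose from 819.6, 837.2, 796.8 and 738.7 to 1022, 1023, 1105 and 1112 (log2 0.42, SE 0.07, adjusted p = 6.99e-04). Psat1, the second enzyme of serine synthesis, fell from 1252, 1197, 1183 and 1237 to 748.5, 802.1, 929.3 and 858.5 (-0.55, SE 0.08, adjusted p = 1.66e-04). The fall was 1.46-fold and the groups were far apart. Phgdh, the first enzyme of the same pathway, had means of 240 ± 19.9 and 240.6 ± 23.2 (adjusted p = 0.990). The annotation holds 11 near-identical copies of Phgdh, and those in the table were listed at 0.

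**Figure D3:**
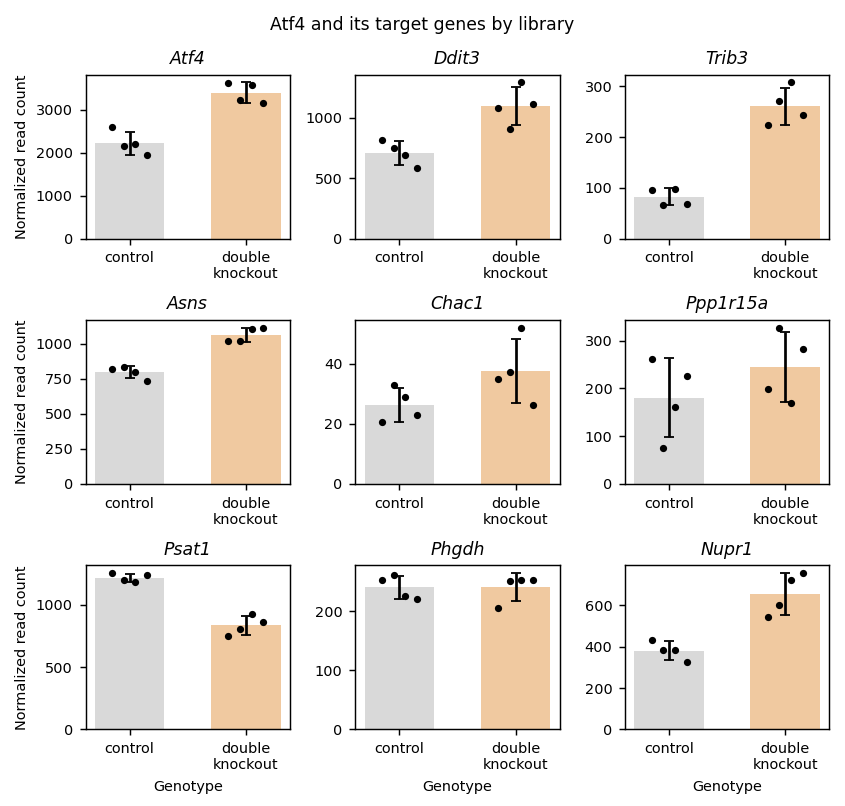
Normalized reads of the 9 genes of the Atf4 group in each library (one panel per gene, a point per library, bars for the means of 4 controls and 4 double knockouts, error bars of 1 SD). The double knockouts lie above the controls for Atf4, Ddit3, Trib3, Asns and Nupr1, below them for Psat1, and overlap them for Chac1, Ppp1r15a and Phgdh.

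Other genes of the pathway, from lists outside the 34, are set beside all tested genes, of which 22.9% were called higher and 23.8% lower. Of 19 tested further targets of ATF4 and CHOP, 9 were called higher and 4 lower, with a median log2 fold change of 0.32. Atf5, a transcription factor gene of mitochondrial stress that shares the translational control of Atf4, rose from 704.3 ± 81.6 to 1997 ± 178 (2.84-fold, adjusted p = 1.73e-07). Atf3, a stress-induced factor of the same family, rose 1.87-fold (adjusted p = 6.07e-07), and Sqstm1, an autophagy receptor gene, rose 1.67-fold (adjusted p = 1.74e-06). Shmt2, the mitochondrial enzyme that uses serine, fell from 902.8 ± 50.3 to 508.1 ± 25.0 (1.78-fold, adjusted p = 5.7e-06).

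Of 7 tested amino acid transporters known as ATF4 targets, 4 were called lower and 1 higher, with a median of -0.74. Slc7a5, which carries large neutral amino acids, fell 2.24-fold, from 688.2 ± 15.3 to 307.8 ± 22.1 (adjusted p = 7.61e-07), and Slc1a5, a glutamine carrier, fell 2.48-fold, from 821.9 ± 74.9 to 331.9 ± 55.1 (adjusted p = 3.9e-06). Slc38a2 and Slc7a1 also fell, by 0.74 and 0.93 on the log2 scale. Slc7a11, the cystine transporter, rose from 20.47 ± 3.66 to 68.5 ± 12.3 (3.34-fold, adjusted p = 2.25e-04). Of 17 cytosolic aminoacyl-tRNA synthetases, 3 were higher and 6 lower, with Vars at -1.18, Iars at -0.76, Yars at -0.58 and Sars at 0.27. The transporters that fell and Slc7a11 had groups that did not overlap.

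Among eIF2 kinases, eIF2 and eIF2B, 1 of 15 genes was higher (Eif2b4, 0.53) and 4 were lower, with Eif2s1, the eIF2 subunit that the kinases phosphorylate, at -0.68. Eif2ak2, the gene of the double-stranded RNA-activated kinase, was at -0.34. Of 27 further ER folding and glycosylation genes, 6 were higher and 9 lower (median -0.16), with the oxidase gene Ero1a at -0.78, the glycoprotein folding sensor gene Uggt1 at -0.76 and the BiP cofactor gene Sil1 at 0.70. In the translocon and signal peptidase list 8 of 23 were higher and 4 lower, with Spcs1 at 0.71 and Tram1 at -0.60. Of 25 further ER degradation genes 5 were higher and 6 lower, with Erlin1 at -0.92 and Erlec1 at 0.58. These shares of 20% and 24% lie near the 22.9% and 23.8% over all tested genes. Of 17 other sensor and partner genes 6 were higher and 3 lower, with Rtcb, the ligase that joins the Xbp1 exons, at 0.54. Of 8 mitochondrial stress genes 4 were higher and none lower. The 4 include Atf5, which is also counted above among the further targets of ATF4 and CHOP.

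**Figure D4:**
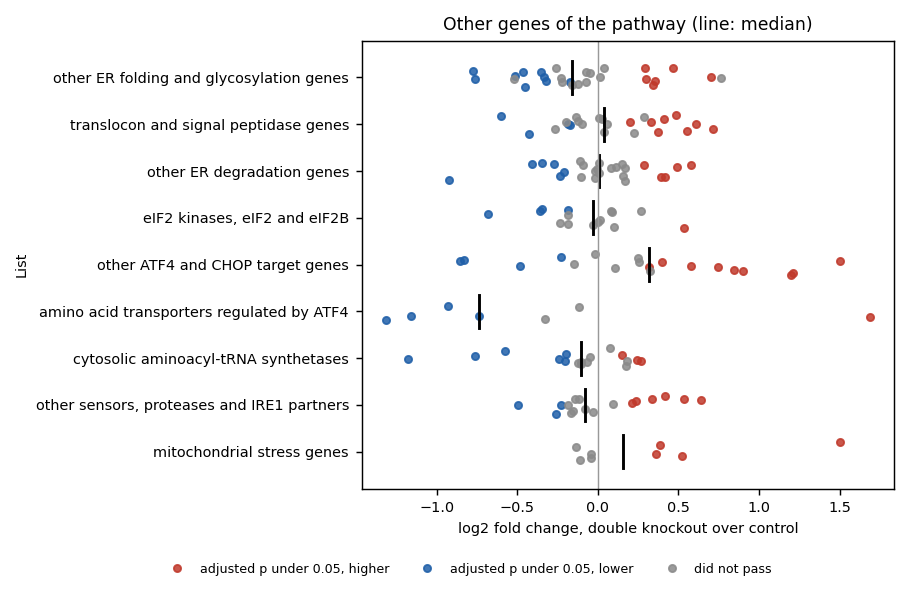
Log2 fold changes of the tested genes in each further pathway list (one point per gene, coloured by whether it passed the test) with a line at the list's median, from limma on 4 libraries per group. The median lies highest for the further ATF4 and CHOP targets, at 0.32, and lowest for the amino acid transporters, at -0.74.

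Within groups, single libraries stood out across many members. Control 4 was the lowest control for 21 of the 34 genes, 10 of the 14 chaperones among them. Double knockout 3 was the lowest of its group for 15 genes and double knockout 4 for 10. Averaged over the Atf4 group, the log2 level relative to controls was 0.38, 0.51, 0.62 and 0.51 in double knockouts 1 to 4, against an SD of 0.12 among controls, so the average over the 9 genes was above the controls in each double knockout.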

How the data were processed

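RNA-seq libraries of 8 macrophage cultures, 4 per genotype, were made with a poly(A) kit and read as pairs of 150 bases, per the labels' protocols. The authors deposited 1 normalized signal value per gene and library, from Salmon 1.4.0 and DESeq2 with build mm10 per the submitters' processing notes. Nothing on strand, on the annotation release or on the import into genes is given in the sources used here. Each deposited value was a whole read number divided by a size factor: 100% came out whole within 0.01, and these recovered reads gave the depth, which limits low genes most, and the count-model alternatives.

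The test was limma 3.58.1 (R 4.3.3, trend and robust, two-sided) on log2(value + 1), over the 11675 genes with at least 10 in at least 4 libraries, adjusted by Benjamini-Hochberg at 0.05. Fold changes on this scale understate changes of low genes, and x-fold values are ratios of group means. Cdk8 and Cdk19 were also compared by an exact two-sided permutation test over 70 regroupings, whose smallest p is 0.0286. Alternatives were edgeR 4.0.16 and DESeq2 1.42.0 on recovered reads, other pseudocounts and filters, quantile scaling, no trend, the replicate number as a block, averaged pairs and each library left out. Double knockouts 1 and 2 alone, and 3 and 4 alone, were chosen after seeing the data. No replicates were repeat deposits (chi-square per gene of 8.13 or more, and highest between controls 1 and 4, at 38.1). Gene coordinates are from a GENCODE annotation of mm10, whose gene starts can differ from the starts used for the promoter windows. Near copies were found with minimap2 2.31.

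The members and lists were chosen with earlier results of these data known. Named were all 34 members, the targeted genes, and up to 6 genes per promoter motif class. Each pathway list gave up to 4 genes from those with the smallest adjusted p, and any further gene that a small count called for. A planned class by C-terminal retention signal was not analysed here, since no protein table was used. The pipeline was tested on simulated data. Some marker genes are not reported here.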

Additional observations from a re-analysis of the deposited data

Results flagged for a closer look

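In 2 of 72 sets of 4 libraries (one set per gene and genotype, with the targeted genes included), 1 library lay far from the other 3, and chance alone marks about 1 set in 20. Eif2ak3 was at 310.6 in control 1, against 409.5 to 427.2 in the other controls. Phgdh was at 205.8 in double knockout 1, against 251.3 to 253.1 in the other double knockouts. Neither gene passed the test with all libraries.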

How the results depend on the processing

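Of the 20 called genes, 14 kept their direction and call in all 20 alternatives, and no called gene changed direction in any of them. The others were Dnajc3 (lost in 8), Atf6 (lost in 4), and Herpud1, Sdf2l1, Syvn1 and Pdia6 (lost in 1 each). With double knockouts 1 and 2 alone, 7 of the 34 genes were called lower and the median log2 fold change was 0.0513, the chaperone median was -0.0932, 1 ER degradation gene was called lower and 0 sensor genes were. With these libraries the uncalled log2 fold changes turned for Hyou1 (0.0337), Dnajb9 (0.0337), Eif2ak3 (0.0092) and Phgdh (-0.0732). With double knockouts 3 and 4 alone the median of the 34 was -0.0636, 0 chaperones were called higher, and Canx (-0.0347) and Pdia4 (-0.0926) turned. Without trend and robust options, and with the pairs averaged, 0 sensor genes were called lower. With edgeR, Phgdh turned to -0.0017. Over the analyses that left out 1 library each, the ER degradation median was 0.0810 (without control 4) to 0.1651, the Atf4 group median 0.4699 to 0.6888 (without control 1), and the number of sensor genes called lower 0 (without double knockout 3) to 1. The uncalled log2 fold changes ranged from -0.0006 to 0.0602 for Canx, -0.0315 to 0.0577 for Pdia4, -0.0359 to 0.0757 for Phgdh, 0.1513 (without control 2) to 0.7508 for Ppp1r15a, 0.0623 to 0.2377 for Manf and 0.0459 to 0.2150 for Ern1. The cause of these changes was not tested.

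Replicate numbers did not pair the libraries: same-numbered libraries had correlations of -0.0535 to 0.0316 in their deviations from the group means. With the replicate block, 9 members were called higher and 10 lower (Dnajc3 was lost, adjusted p = 0.0848), and over all genes 2215 and 2434, against 2671 and 2773. Low read numbers limit Chac1, Trib3 and Slc7a11 most.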
